A study of Mus musculus with 117 samples.

Results

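The genes described here are 31 listed genes of glycolysis and of the cellular response to low oxygen, followed in mouse tissues and tumours on Affymetrix arrays. The list was given, with 1 probe set taken per gene: the probe set annotated to that gene alone with the highest mean over all 117 arrays. Of the 31 genes, 27 had such a probe set, out of 17097 genes measured in all, and Gpi1, Pgam1, Eno1 and P4ha1 had none and were not analysed here. The samples were 51 preparations of normal cells and 66 whole tumours, all from strain C57BL/6. The normal cells came from prostate, lung, intestine, liver, stomach and uterus, which had been dissociated and separated with magnetic beads against Prom1, a membrane glycoprotein used as a marker of epithelial stem cells. Prom1-positive cells were represented by 3 samples each from prostate, lung, intestine and stomach and by 4 each from liver and uterus. Prom1-negative cells were represented by 7 samples each from lung and liver, 5 each from prostate and intestine, 4 from stomach and 3 from uterus. The tumours were 10 prostatic adenocarcinomas, 14 bronchial papillary adenomas, 13 hepatocellular carcinomas, 11 gastric adenocarcinomas, 9 uterine adenocarcinomas, 6 squamous cell carcinomas of skin and 3 B-cell lymphomas. The series' text speaks of conditional Prom1 mutant mice, but the sample labels give no genotype, driver of recombination, age, sex or treatment, so a group is known only by its tissue, its sort or its tumour type. Nothing in the labels ties a sample to an animal, and p-values therefore measure only the spread between these samples, which may be technical. Tumours were frozen whole while normal cells were dissociated and sorted, so tissue handling and tumour state cannot be told apart in any comparison of tumour with normal.

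Glycolysis turns glucose into pyruvate in the cytosol and, where pyruvate is reduced to lactate, makes ATP without oxygen. In low oxygen the prolyl hydroxylases encoded by Egln1 and Egln3 no longer mark the HIF alpha subunits for destruction, and the stabilised HIF complex binds hypoxia response elements and switches on glucose transport, glycolytic enzymes, Vegfa and genes of mitochondrial and pH control. Many tumours keep glycolysis high even with oxygen present, liver uses tissue-specific isoenzymes in place of several of the genes listed here, and HIF targets such as Car9 are also expressed constitutively in some healthy epithelia.

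Values are deposited log2 signals, so a difference of 1 is a doubling of signal. Array medians lay between 3.63 and 4.01, and the upper quartile was under 6 in 6 of the sorted arrays and in no tumour array, with the lowest, 5.05, in 1 Prom1-negative stomach sample, called the dim stomach sample below. No detection calls come with the values. Of the 27 genes, 15 were above the array median in all arrays, whereas Slc16a3, the lactate exporter, was at or under it in 86 of 117 arrays, Car9 in 32, Egln3 in 25, Adm and Ankrd37 in 19 each, Pfkfb4 in 8 and P4ha2 in 6. A difference against such a group is one of signals, of which the lower may be background. The tissue labels were set against defining markers: the 6 hepatocyte markers averaged 12.66 in Prom1-positive and 12.35 in Prom1-negative liver cells, and the 6 stomach markers averaged 12.03 and 12.86 in the stomach groups. Stomach markers averaged 6.55 in gastric tumours and prostate markers 7.32 in prostatic tumours against 12.36 and 11.69 in the sorted prostate groups. The B-cell markers averaged 7.69 and the T and NK cell markers 8.50 in the lymphomas. In bulk samples such as these, fewer cells of a type and less RNA per cell cannot be told apart.

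Promoter stretches are shown for 5 genes whose signal rose in tumours of at least 4 of 5 organs and whose window before the start held the letters ACGTG, the core of the hypoxia response element. Pkm also met both conditions, and its stretch is not shown. The sequences are from RefSeq, build GRCm38.p6, written 5′ to 3′ on the gene's own strand, with every match to ACGTG or GCGTG on either strand in capitals, so that CACGT and CACGC are the same words on the other strand. Each stretch covers 100 bases before an annotated start. They encode phosphoglycerate kinase (Pgk1), the muscle-type lactate dehydrogenase subunit (Ldha), a mitochondrial mitophagy receptor (Bnip3), an ankyrin repeat protein induced by HIF (Ankrd37) and an oxygen-sensing prolyl hydroxylase (Egln3). The stretches lie at chrX:106186909-106187008 on the plus strand, chr7:46845675-46845774 on the plus strand, chr7:138909537-138909636 on the minus strand, chr8:45999992-46000091 on the minus strand and chr12:54204025-54204124 on the minus strand, in that order.
Pgk1: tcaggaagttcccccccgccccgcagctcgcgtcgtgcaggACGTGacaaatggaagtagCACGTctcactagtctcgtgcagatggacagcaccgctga
Ldha: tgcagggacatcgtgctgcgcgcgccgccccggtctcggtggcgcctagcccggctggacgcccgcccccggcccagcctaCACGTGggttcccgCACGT
Bnip3: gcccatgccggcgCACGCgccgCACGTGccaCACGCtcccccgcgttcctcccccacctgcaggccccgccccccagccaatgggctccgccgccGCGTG
Ankrd37: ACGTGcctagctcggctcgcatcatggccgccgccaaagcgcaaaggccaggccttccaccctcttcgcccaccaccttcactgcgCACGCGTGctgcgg
Egln3: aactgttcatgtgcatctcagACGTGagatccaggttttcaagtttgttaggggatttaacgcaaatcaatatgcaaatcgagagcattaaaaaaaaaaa

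Of the 27 genes, 26 had at least 1 RefSeq promoter window, and Ndrg1 had none. In the 250 bases before the start, ACGTG or GCGTG was found in 31 of their 38 windows, or 81.6%, against 38.6% of all 32851 windows. By gene, 25 of 26 held a match in some window, or 96.2%, against 41.5% of 27025 genes. Tpi1, triose phosphate isomerase, was the 1 gene with no match. ACGTG alone was found for 65.4% of the genes against 18.5% of all genes. The Bnip3 stretch held 5 matches and the Egln3 stretch 1. CACGTG reads the same on both strands and counts as a match on each, and a match describes the letters only. The list was made of glycolysis and low-oxygen response genes, so its high shares are no independent result. Its genes also had more windows each, 38 for 26 genes against 32851 for 27025, which raises the shares by gene. Base composition of the windows was not matched.

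All groups are shown side by side in the map of group means. Levels of 25 of the 27 genes differed among the 6 normal tissues (limma moderated F, adjusted p under 0.05), where 90.1% of all genes did, and all 27 differed among the 7 tumour types, where 95.1% of all genes did. The 2 genes not called among normal tissues were Ndrg1 (adjusted p = 0.0693) and Ero1a (adjusted p = 0.0626). These shares lie near those of all genes, so the results turn on which tissue and which tumour type carried which gene.

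**Figure D1:**
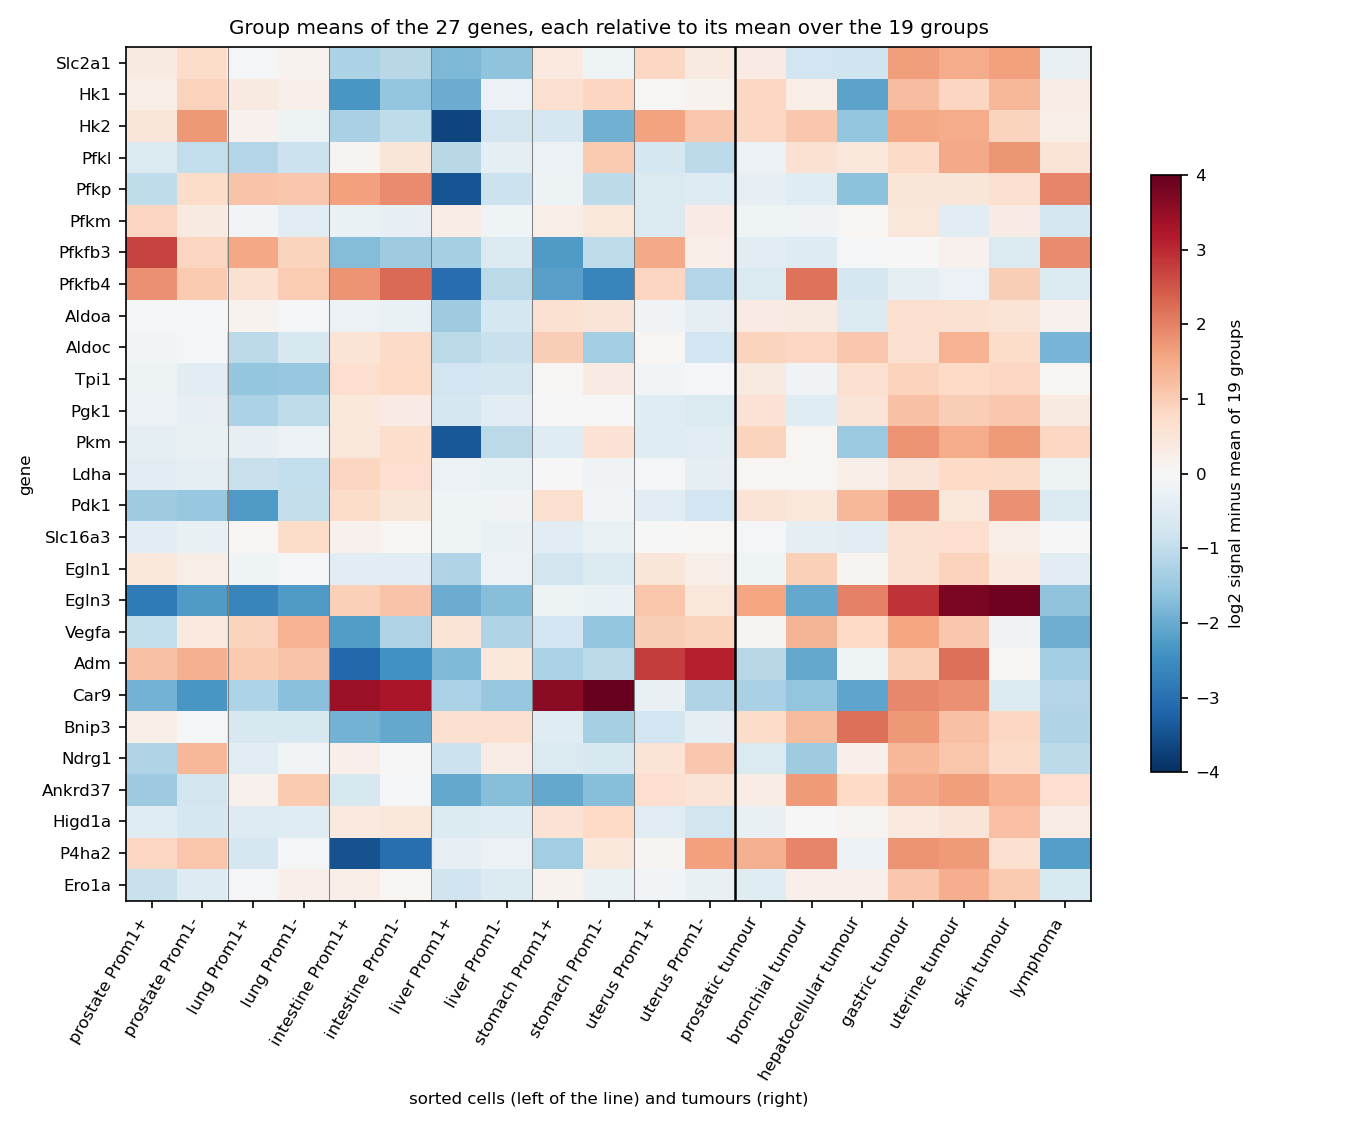
Heat map of group means for the 27 genes (rows) in 12 sorted groups and 7 tumour types (columns), coloured by log2 signal minus the gene's mean over the 19 groups, from -4 to 4. Car9 stands out in intestine and stomach, Egln3 in gastric, uterine and skin tumours, and Prom1-positive liver cells are low for Hk2, Pfkp, Pkm and Pfkfb4.

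In the normal tissues, glucose entry and phosphorylation were lowest in liver or intestine. Hk2, the inducible hexokinase, had 4 Prom1-positive liver values of 6.14, 5.05, 4.51 and 3.40, and its 7 Prom1-negative liver values ran from 6.91 to 8.21 with a median of 7.84. Uterus had the highest tissue level of Hk2 at 9.80, and none of its samples overlapped a liver sample. Against the other 5 tissues, Hk2 was lower in liver by a log2 difference of -2.20 ± 0.22 (SE, limma adjusted p = 1.78e-11) and higher in uterus by 2.06 ± 0.26 (adjusted p = 1.17e-08). The ubiquitous glucose transporter gene Slc2a1 had liver lowest at 6.64 and uterus and prostate highest at 8.93 and 8.89, a pair that differed by less than the spread within those groups. Hk1, the housekeeping hexokinase, was lower in intestine (-2.05 ± 0.25, adjusted p = 1.97e-09) and higher in stomach (1.16 ± 0.26, adjusted p = 0.000242). The 6 normal-tissue comparisons share all sorted samples, so they are not independent of each other.

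Liver had the most one-sided pattern: 17 of the 27 genes were called, where 58.4% of all genes were (21.3% higher and 37.1% lower), 16 of them lower and 1 higher. The largest differences were in Pfkp, the platelet-type phosphofructokinase subunit (-2.47 ± 0.31), Pfkfb4, a kinase and phosphatase that sets the phosphofructokinase activator (-2.41 ± 0.19), Hk2, Pkm, the non-liver pyruvate kinase (-2.14 ± 0.23), Car9 (-1.96 ± 0.20) and Slc2a1 (-1.72 ± 0.20), with adjusted p of 3.53e-09 or less. Bnip3 was the member higher in liver (1.45 ± 0.29, adjusted p = 4.05e-05). The median difference over the 27 genes was -0.62, beside -0.17 over all genes. A tissue's level here is the mean of its Prom1-positive and Prom1-negative groups. Pfkp, Pfkfb4, Hk2 and Pkm also differed between the liver groups, by -2.62, -1.96, -2.95 and -2.31, with Prom1-positive cells lower. Their liver differences thus rest more on the Prom1-positive than on the Prom1-negative arrays.

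In the intestine, 20 of the 27 genes were called, where 57.3% of all genes were (29.6% higher and 27.7% lower), with 12 higher and 8 lower. Of the 5 genes of lower glycolysis, Aldoa was not called and the other four were higher: Tpi1 by 1.24 ± 0.13 (adjusted p = 5.73e-11), Pkm by 1.22 ± 0.26, Aldoc by 1.16 ± 0.29, with the opposite sign in its other, dim probe set, and Pgk1 by 0.88 ± 0.14. Ldha, of lactate formation, was higher by 1.15 ± 0.12 (adjusted p = 3.23e-11). Ldha had no overlap between intestinal samples and those of any other sorted tissue, which held for 2.78% of all genes. Pfkfb4 (2.52 ± 0.21), Egln3 (2.31 ± 0.34) and Pfkp (2.23 ± 0.35) were higher as well. Adm, which encodes the vasodilator peptide adrenomedullin, was lower (-3.47 ± 0.30, adjusted p = 1.11e-13). P4ha2, a collagen prolyl hydroxylase subunit, was lower too (-3.41 ± 0.31, adjusted p = 7.63e-13), with 5 of the 8 intestinal samples at or under the array median. Adm values in the 3 Prom1-positive intestinal samples were 2.63, 3.27 and 2.76, all at or under the array median.

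Car9, the membrane carbonic anhydrase that acidifies the cell's surroundings, separated the gut epithelia from the other tissues. Its stomach values were 8.43, 9.59 and 9.71 in Prom1-positive and 9.07, 8.73, 10.73 and 9.99 in Prom1-negative cells. The intestinal values were 8.72, 9.09 and 9.46 and then 8.74, 8.60, 8.50, 9.27 and 9.29. Every gut sample was thus above every sample of the other 4 tissues, of which the highest, 5.87, was uterine, and the positive and negative cells overlapped within both gut tissues. Against the other 5 tissues Car9 was 19.4-fold higher in stomach (4.28 ± 0.24, adjusted p = 1.98e-19) and 13.3-fold higher in intestine (3.73 ± 0.23, adjusted p = 2.14e-18). Prostate was lowest (-2.83 ± 0.23), with both of its groups close to the array median.

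Adm was highest in the uterus. Of 27 genes, 12 were called there, where 47.8% of all genes were (26.5% higher and 21.3% lower), with 10 higher. Adm reached 8.79, 9.24, 8.57 and 8.63 in Prom1-positive and 8.52, 9.04 and 9.81 in Prom1-negative uterine cells, a log2 difference of 3.39 ± 0.31 from the other tissues (adjusted p = 1.58e-12). Intestine and stomach lay far below that range, while 1 Prom1-positive prostate sample, at 8.86, fell inside it. Egln3 (1.99 ± 0.35), P4ha2 (1.55 ± 0.32), Ankrd37 (1.53 ± 0.28) and Vegfa, the main endothelial growth factor (1.41 ± 0.44), were also higher. The Vegfa call was lost with the mean of its probe sets (adjusted p = 0.0513) or with the array's upper quartile as a covariate (adjusted p = 0.0835).

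Prostate, lung and stomach showed mixed directions. In prostate 13 genes were called, where 39.9% of all genes were (23% higher and 16.9% lower), led by Car9 and by Pfkfb3, the kinase that makes the phosphofructokinase activator (2.20 ± 0.29, adjusted p = 2.2e-08), with Egln3 at -2.02 ± 0.34, Hk2 at 1.79 ± 0.25, Pfkfb4 at 1.79 ± 0.21 and P4ha2 at 1.67 ± 0.31. In lung 17 genes were called, where 53.3% of all genes were (24.8% higher and 28.5% lower), with Car9 at -2.05 ± 0.22, Egln3 at -1.90 ± 0.33, Vegfa at 1.65 ± 0.41, Pfkfb3 at 1.52 ± 0.27, Ankrd37 at 1.52 ± 0.25 and Tpi1 at -1.50 ± 0.13. Lung had the lowest tissue levels of Tpi1, Pgk1 and Ldha. In stomach 14 genes were called, where 50.6% of all genes were (19.2% higher and 31.4% lower), and beside Car9 the largest were Pfkfb4 at -2.82 ± 0.22 and Pfkfb3 at -1.92 ± 0.30, followed by Adm at -1.54 ± 0.31, Ankrd37 at -1.46 ± 0.28 and Hk1. The second Pfkfb3 probe set, above the array median in 21 arrays, had the opposite sign in the lung, stomach and uterus comparisons.

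**Figure D2:**
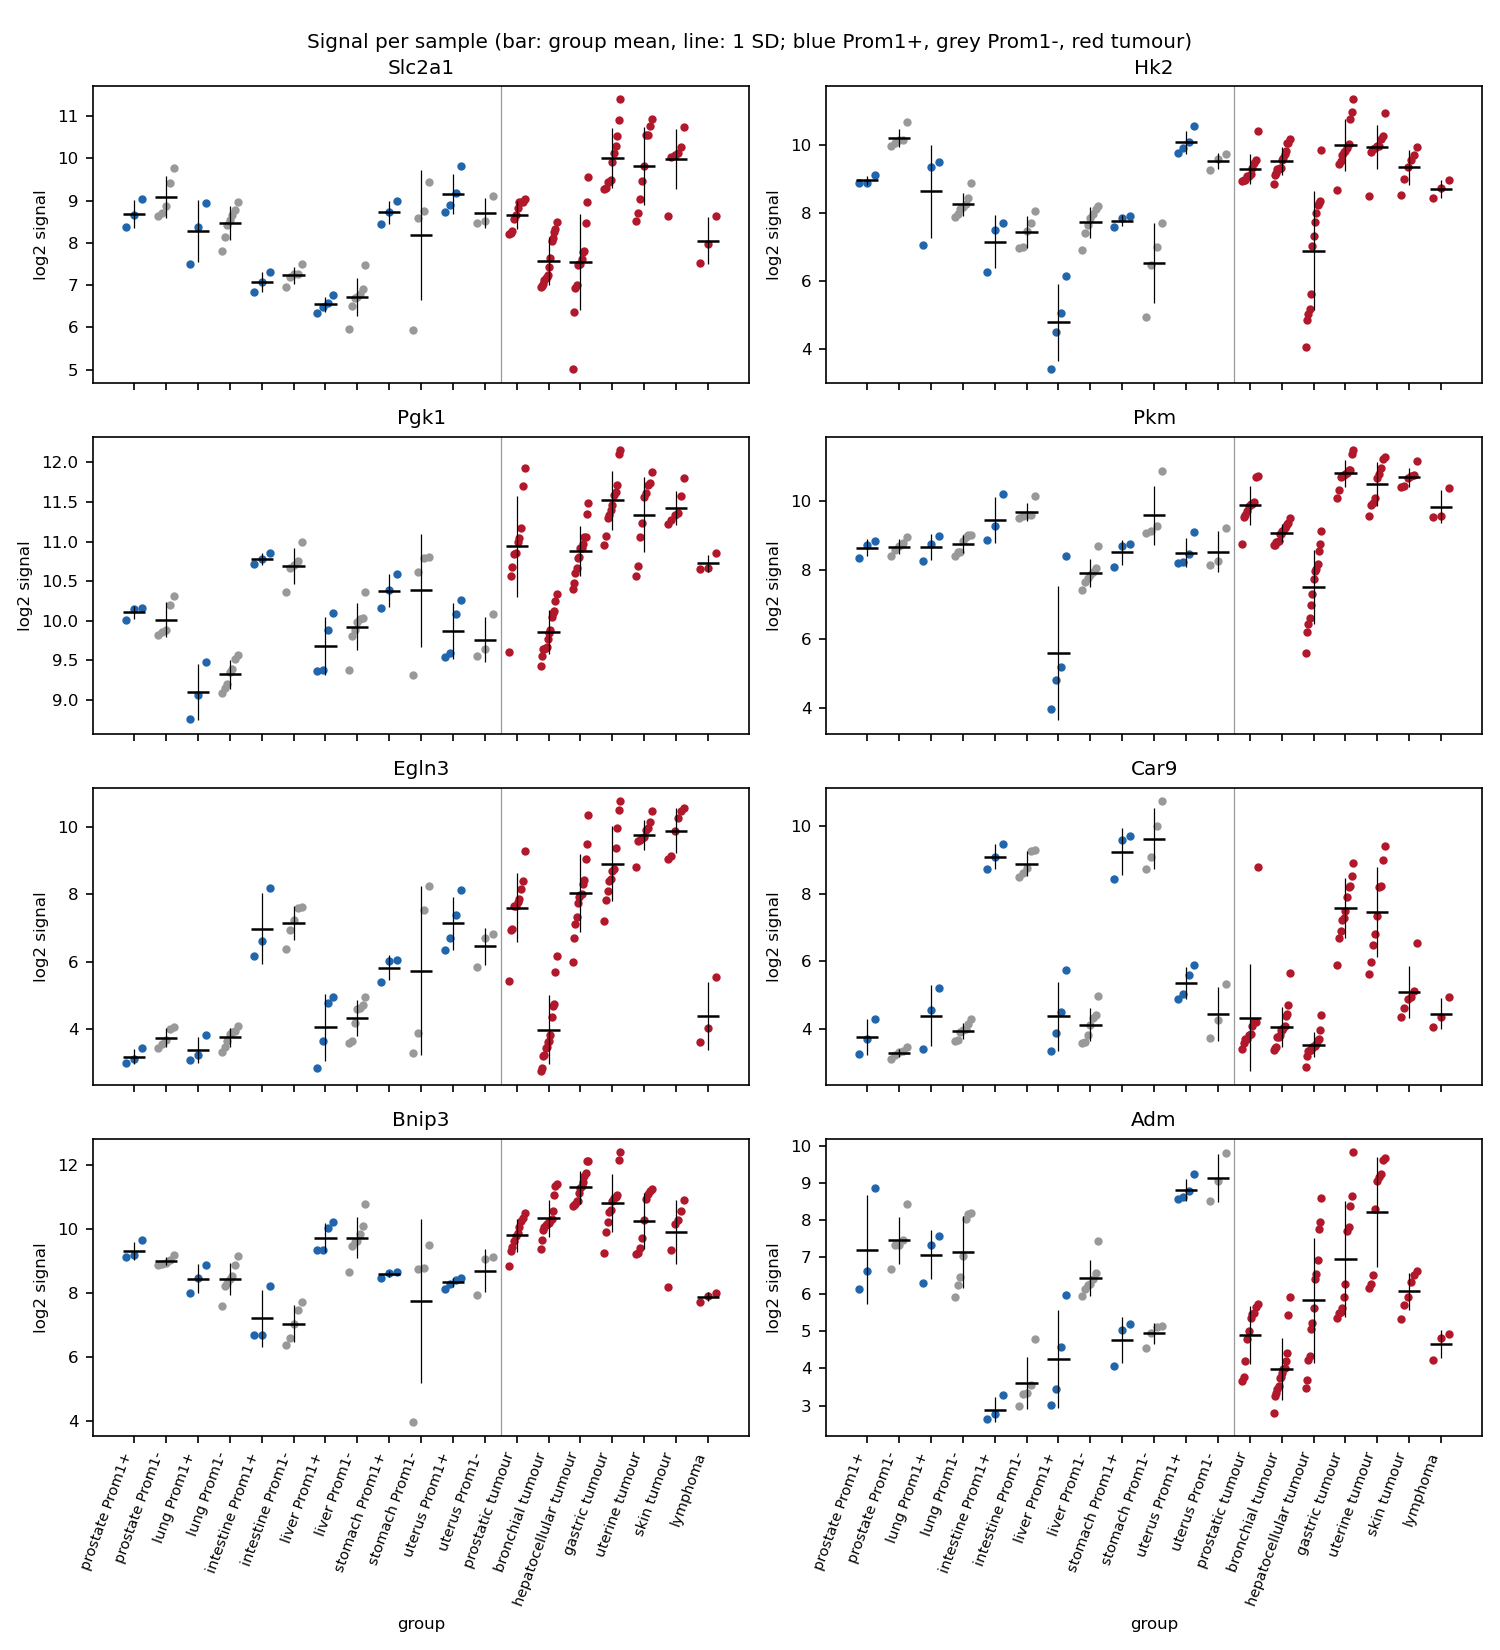
Log2 signal of Slc2a1, Hk2, Pgk1, Pkm, Egln3, Car9, Bnip3 and Adm in every sample of the 12 sorted groups (blue Prom1-positive, grey Prom1-negative) and 7 tumour types (red), with each group's mean as a bar and 1 SD as a line. Car9 is high in all stomach and intestine samples, and in prostatic tumours a single sample reaches 8.79 while the median is 3.84.

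The sort compared Prom1-positive with Prom1-negative cells of the same tissue. Averaged over 6 tissues, 3 of the 27 genes were called, or 11.1%, where 13.6% of all genes were called (5.05% higher and 8.56% lower). All 3 were lower in Prom1-positive cells: P4ha2 (-0.81 ± 0.23, adjusted p = 0.0138), Pkm (-0.63 ± 0.19, adjusted p = 0.0244) and Hk1 (-0.57 ± 0.18, adjusted p = 0.0326). The P4ha2 difference had the same sign in all 6 tissues, ranging from -0.10 in liver to -1.85 in stomach. The Pkm and Hk1 means leaned on liver, where the differences were -2.31 and -1.76. The sort-by-tissue interaction was called for Pkm (limma adjusted p = 0.0168) and not for Hk1 (0.108). The count of called genes rose to 8 without the 6 arrays of low upper quartile and to 7 without the dim stomach sample. It rose to 6 without Prom1-positive liver sample 2, and to 5 without Prom1-positive lung sample 1 or Prom1-positive prostate sample 1. Shares of all genes under these and later alternative settings are not given here, so a changed count need not be particular to the listed genes. The Hk1 call was lost without Prom1-positive liver sample 3, 4 or 5, Prom1-positive lung sample 2, Prom1-positive prostate sample 2 or Prom1-negative stomach sample 1, with adjusted p from 0.0505 to 0.061, and with the array's upper quartile as a covariate (adjusted p = 0.0582). The 7 T and NK cell markers averaged less in Prom1-positive than in Prom1-negative cells of all 6 tissues, from 3.44 to 6.90 against 4.10 to 8.53 over the groups. The 7 fibroblast markers averaged less in 5 tissues, among them prostate (5.97 against 8.50), lung (6.97 against 7.93) and uterus (8.53 against 10.19), and were close in intestine (3.72 against 3.71). Their part in the 3 differences was not tested.

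Liver had the most calls of the 6 tissues. Of the 27 genes, 8 were called, all lower in Prom1-positive liver cells, where 20.7% of all genes were called (4.2% higher and 16.5% lower). Hk2, with the liver values given above, showed no overlap between the groups and differed by -2.95 ± 0.40 (7.74-fold lower, limma adjusted p = 6.25e-07). The groups did not overlap for 8.17% of all genes. Pkm had Prom1-positive values of 8.40, 4.81, 3.97 and 5.19, and its Prom1-negative values ran from 7.41 to 8.70 with a median of 7.83. Sample 2 of the positive group thus lay inside the negative range while the other 3 lay far below it, and the difference was -2.31 ± 0.41 (adjusted p = 6.62e-05). Pfkp had positive values of 6.97, 3.68, 3.57 and 4.14 and a negative median of 6.96, with the same sample again inside the negative range (-2.62 ± 0.55, adjusted p = 0.000461). The other Pfkp probe set, above the array median in 20 arrays, had the opposite sign here. Pfkfb4 had positive values of 3.60, 3.46, 3.0 and 2.76, all at or under the array median, and a negative range from 4.43 to 6.03 (-1.96 ± 0.34, adjusted p = 3.49e-05). Hk1 and Adm completed the 6 largest, at -1.76 ± 0.39 and -2.18 ± 0.47. Without sample 2, 11 genes were called.

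Marker lists moved with the liver sort. The 7 T and NK cell markers averaged 3.76 in Prom1-positive liver cells (range over arrays 3.7 to 3.81, with 5 of 7 at or under the array median) and 7.39 in Prom1-negative cells (6.84 to 8.85). The 6 macrophage markers averaged 8.48 (7.63 to 9.98) and 10.95 (10.47 to 11.41), and the 6 endothelial markers 7.29 (5.68 to 9.93) and 9.35 (8.94 to 9.92). Hepatocyte markers were close in both groups, as given above. Signs of RNA quality moved with the sort as well: the log2 ratio of 3′ to 5′ control probe sets was 1.11 to 1.2 in positive and 0.36 to 0.98 in negative liver arrays for Gapdh and 1.37 to 1.78 and 0.43 to 0.83 for Actb, and the array's upper quartile was 5.96 to 6.02 and 6.08 to 6.41. None of these 3 measures overlapped between the groups. The part of these cell types and array measures in the lower Hk2, Pkm and Pfkp signals was not tested.

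The other tissues had 0 to 2 called genes each. In prostate 2 genes were, where 9.19% of all genes were called (3.21% higher and 5.98% lower). Ndrg1, a stress-induced growth-restraining gene, was lower in Prom1-positive cells, with values of 8.16, 6.77 and 6.76 against 9.94, 10.11, 9.35, 9.88 and 9.61 in negative cells (-2.55 ± 0.63, adjusted p = 0.0049). Pfkfb3 was higher, with 9.52, 9.32 and 10.59 against 6.24, 8.28, 8.40, 8.53 and 8.35 (1.85 ± 0.53, adjusted p = 0.0172). The groups did not overlap for either gene, which held for 24.7% of all genes. The Pfkfb3 call was lost without Prom1-negative sample 1 (adjusted p = 0.0649) or Prom1-positive sample 3 (adjusted p = 0.151). That of Ndrg1 was lost without Prom1-positive sample 2 (adjusted p = 0.0542). The 7 T and NK cell markers averaged 3.7 (3.56 to 3.76 over arrays) in the positive and 6.69 (6.05 to 7.47) in the negative prostate cells. The 7 fibroblast markers averaged 5.97 (5.17 to 7.02) and 8.50 (7.40 to 8.89), and the Gapdh 3′ to 5′ log2 ratio was 0.93 to 1.03 and 0.51 to 0.82. Their part in these differences was not tested. With neighbouring sample codes as a block, 7 genes were called in prostate and 4 in uterus.

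In stomach, Aldoc, the brain-type aldolase, was the 1 gene called, where 3.17% of all genes were (2.29% higher and 0.888% lower). Its Prom1-positive values were 8.59, 8.30 and 7.98 and its negative values 5.86, 4.32, 6.40 and 7.12, the lowest in that dim sample (2.37 ± 0.55, adjusted p = 0.00717). The groups did not overlap, which held for 6.98% of all genes. The call was lost without the arrays of low upper quartile (adjusted p = 0.191) although the difference stayed at 2.13. The count was 3 without the dim stomach sample and 2 without Prom1-positive sample 3. In uterus, Pfkfb4 was the 1 gene called, where 10.9% of all genes were (5.31% higher and 5.64% lower). It read 7.16, 6.91, 7.36 and 6.99 in positive and 5.0, 4.63 and 5.66 in negative cells (2.01 ± 0.41, adjusted p = 0.000513). The groups again did not overlap, which held for 31.1% of all genes. The 6 macrophage markers averaged 11.39 (11.09 to 11.72) in positive and 7.74 (7.40 to 8.31) in negative uterine cells. The Gapdh 3′ to 5′ log2 ratio was 0.36 to 0.88 in positive and 1.29, 1.54 and 0.31 in negative uterine arrays, in the order of the values above. For Actb it was 0.44 to 1.02 and then 1.87, 2.41 and 0.34. The part of these markers and array measures was not tested.

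In lung, where 1.51% of all genes were called, and in intestine, where 0.199% were, limma called 0 of the 27 genes, and 0 had an unadjusted p under 0.05 in either tissue. The differences between tissues were tested with the sort-by-tissue interaction, which called 6 genes, where 21.2% of all genes were called: Pfkfb4 (adjusted p = 6.3e-06), Hk2 (1e-05), Pfkfb3 (0.00647), Pfkp (0.0123), Pkm (0.0168) and Aldoc (0.0304). Pfkfb4, for instance, was lower in Prom1-positive liver cells and higher in Prom1-positive uterine cells. The count was 11 without Prom1-positive liver sample 2.

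**Figure D3:**
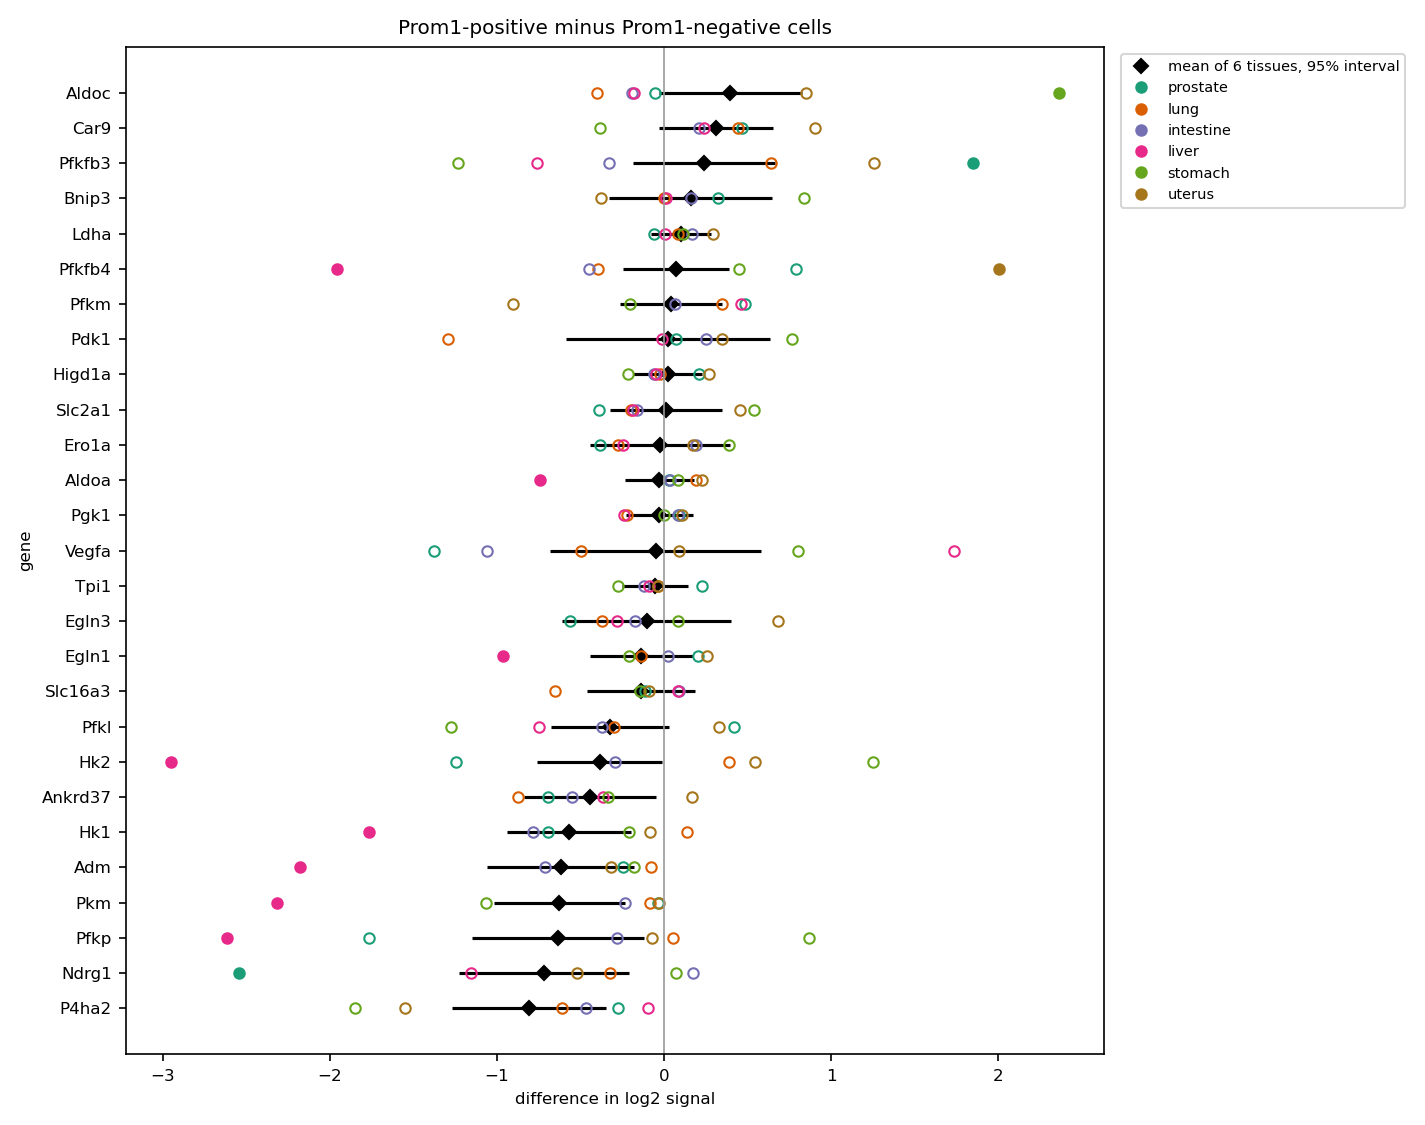
Prom1-positive minus Prom1-negative cells: difference in log2 signal (x axis) for each of the 27 genes (y axis), with the mean of 6 tissues as a black diamond and its 95% interval, and each tissue as a coloured circle, filled where called. Most circles are open, and the filled circles left of 0 are mostly from liver.

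Tumours were compared with the sorted normal cells of the same organ, for prostate, lung, liver, stomach and uterus. Averaged over the 5 organs, 21 of the 27 genes were called, where 65.8% of all genes were called. Of these, 19 were higher in tumours, where 39% of all genes were higher, and 2 were lower, where 26.8% of all genes were lower. The median difference over the 27 genes was 0.72, beside 0.08 over all genes. Skin tumours and lymphomas have no normal counterpart here. These comparisons use the same sorted samples as the sort comparisons.

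Among the steps of lower glycolysis, all 5 measured genes rose: Aldoc by 1.46 ± 0.15, Pkm by 1.2 ± 0.13, Pgk1 by 1.05 ± 0.08, Tpi1 by 1.02 ± 0.07 and Aldoa, the muscle-type aldolase, by 0.43 ± 0.07 (largest adjusted p = 8.3e-08). The other Aldoc probe set, above the array median in 3 of 117 arrays, gave 0.07 in the mean and the opposite sign in prostate, liver and stomach, and the mean of both sets gave 0.77, which kept the call. Pgk1 signals in normal prostate were 10.14, 10.16 and 10.02 in positive and 10.20, 10.31, 9.88, 9.82 and 9.86 in negative cells, and prostatic tumours ran from 9.61 to 11.93 with a median of 10.92. In stomach they were 10.59, 10.17 and 10.39, then 10.79, 9.31, 10.62 and 10.81, against 10.96 to 12.15 in gastric tumours (median 11.46). In uterus they were 10.09, 9.59, 9.54 and 10.26, then 9.65, 9.55 and 10.08, against 10.56 to 11.88 in tumours. All gastric and uterine tumours were above all normal samples of their organ. Tumour and normal samples did not overlap for 12.3% of all genes in stomach and 5.95% in uterus. Of the prostatic tumours 9 were above and 1 was below the normal range. Pgk1, Tpi1, Ldha and Aldoc were higher in all 5 organs, with a call in each, and no other gene of the list was called in every organ. For Pgk1 the organ values ran from 0.64 in lung to 1.52 in uterus, and for Ldha from 0.50 to 1.02.

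Of the 3 genes of pyruvate and lactate handling 2 rose. Pdk1, the kinase that switches pyruvate dehydrogenase off, rose by 1.64 ± 0.20 (3.12-fold, adjusted p = 4.38e-12) and was called in 4 organs, of which liver lost the call with the array's upper quartile as a covariate (0.68, adjusted p = 0.148). Its organ interaction was not called (adjusted p = 0.503), with organ values from 1.05 to 2.07. Ldha rose by 0.72 ± 0.07 (adjusted p = 2.86e-17). Slc16a3, the dim probe set, was not called in the mean (0.17) and was lower in lung and higher in stomach.

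Glucose entry and the phosphofructokinase step had mixed directions. Hk2 rose by 0.88 ± 0.17 and Slc2a1 by 0.47 ± 0.15 in the mean, while Hk1, at 0.09, was not called. Hk2 was called in 2 organs, both higher, with organ values from -0.28 to 2.85, the latter in stomach. Its organ interaction was called (limma adjusted p = 6.35e-06). Slc2a1 was lower in lung tumours (-0.80 ± 0.30, adjusted p = 0.0259) and higher in liver (0.90), stomach (1.56) and uterus (0.89). The Slc2a1 mean lost its call with the array's upper quartile as a covariate (0.26, adjusted p = 0.238). Pfkl, the liver-type phosphofructokinase subunit, rose by 1.21 ± 0.14 and most in uterus (2.40 ± 0.34), although 1 of its 3 probe sets gave 0.03. Pfkm, the muscle-type subunit, and Pfkp were not called in the mean. Pfkfb3 was lower in prostate (-2.20 ± 0.36) and lung (-1.73 ± 0.33) and higher in liver (0.88 ± 0.32) and stomach (1.63 ± 0.37). Its mean of -0.43 ± 0.16 (adjusted p = 0.0134) therefore averages opposite directions, and the call was lost with Prom1-negative cells as the reference (-0.25, adjusted p = 0.238) or without the arrays of low upper quartile (-0.37, adjusted p = 0.0571). Its second, dim probe set had the opposite sign in liver and stomach. Pfkfb4 also joined a fall in prostate (-2.01 ± 0.36) with rises in lung (1.37 ± 0.32), liver (1.40 ± 0.31) and stomach (2.01 ± 0.36). The liver rise was 0.42 with Prom1-negative cells as the reference, and its call was lost (adjusted p = 0.366). The mean of 0.54 ± 0.16 lost the call with the upper quartile as a covariate (0.36, adjusted p = 0.124) or with Prom1-positive cells as the reference (0.45, adjusted p = 0.0562).

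The oxygen sensors rose in the mean over the 5 organs. Egln3 had the largest mean difference of the list, 2.90 ± 0.20 (adjusted p = 1.15e-24). Normal prostate cells read 3.43, 3.12 and 2.99 when Prom1-positive and 3.66, 3.99, 3.44, 4.07 and 3.55 when negative, near the array median, and prostatic tumours ran from 5.41 to 9.28 with a median of 7.71. No prostatic tumour overlapped the normal range, where 9.49% of all genes had no overlap, and the difference was 4.15 ± 0.45 (adjusted p = 5.12e-13). In liver the positive cells read 2.83, 3.63, 4.94 and 4.78, the negative cells 3.59 to 4.95, and the carcinomas 5.98 to 10.37 (3.85 ± 0.39). The carcinomas were again apart from the normal cells, which held for 2.08% of all genes. In stomach the negative cells spread from 3.28 to 8.25, and the gastric tumours, from 7.21 to 10.76, overlapped them (3.14 ± 0.46). Lung was the exception: bronchial adenomas had a median of 3.63 beside 3.84 in Prom1-negative lung cells, and the difference of 0.41 was not called. The organ interaction was called (adjusted p = 1e-07). Egln1, the main oxygen sensor, rose by 0.64 ± 0.10 in the mean. It was called in 3 organs, all higher, with organ values from -0.51 to 1.25, and its organ interaction was called (adjusted p = 1.02e-05). Among the alternative settings its mean was as low as 0.29 and kept its call.

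Among the secreted and pH-linked targets, Adm and Car9 took opposite directions by organ. Adm was lower in the mean (-0.74 ± 0.22, adjusted p = 0.00258), which joined a fall in lung (-3.12 ± 0.47) and prostate (-2.41 ± 0.52) with a rise in stomach (2.10 ± 0.52). Lung values were 7.32, 6.31 and 7.58 in positive cells and 5.92 to 8.18 in negative cells, against 2.80 to 5.92 in the adenomas. All adenomas lay below the lowest normal sample, the nearest pair by less than the rounding, where 6.23% of all genes had no overlap. The 6 endothelial markers averaged 9.04 (7.60 to 10.74) in Prom1-positive lung cells, 9.23 (5.92 to 10.11) in Prom1-negative lung cells and 6.88 (5.87 to 8.35) in the adenomas, and the 8 epithelial markers 6.27 (6.17 to 6.33), 6.99 (6.27 to 7.88) and 9.68 (9.07 to 10.31). Their part in the lung differences was not tested. The mean Adm call was lost with Prom1-positive cells alone as the reference (-0.44, adjusted p = 0.207). Car9 was not called in the mean (0.14) and was lower in gastric tumours (-1.87 ± 0.40) and higher in uterine tumours (2.56 ± 0.42, 5.89-fold). Uterine tumour values of Car9 ran from 5.63 to 9.42, overlapping normal uterus at their lower end, and gastric values from 5.90 to 8.91, overlapping normal stomach at their upper end. Vegfa rose by 0.93 ± 0.18, mainly in stomach (2.74 ± 0.41) and liver (1.13 ± 0.36), but its second probe set gave -0.22 in the mean, so the direction depended on the probe set, and the mean of both gave 0.36 (adjusted p = 0.0585).

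Of the 6 mitochondrial, stress, collagen and folding genes 5 rose. Ankrd37 rose by 1.92 ± 0.20 (adjusted p = 1.94e-14), Bnip3 by 1.70 ± 0.16 (adjusted p = 8.94e-17) (called in 4 organs each) and Higd1a, a respiratory chain supercomplex factor, by 0.46 ± 0.10. Ndrg1 was not called in the mean (0.19), being lower in lung (-1.15 ± 0.39) and higher in stomach (1.92 ± 0.44). P4ha2 rose by 1.17 ± 0.15, with called differences in lung (2.31 ± 0.31) and stomach (2.24 ± 0.34). Ero1a, an oxidase of protein folding in the endoplasmic reticulum, rose by 0.80 ± 0.16, and this call was lost with the upper quartile as a covariate (0.32, adjusted p = 0.15).

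By organ, 12 genes were called in prostate, where 36.7% of all genes were (20.9% higher and 15.8% lower), with 8 higher; after Egln3 and Adm the largest were Pfkfb3, Pdk1 (2.01 ± 0.45), Pfkfb4 and Ankrd37 (1.38 ± 0.47). This Ankrd37 call was lost with the upper quartile as a covariate (adjusted p = 0.0539), without Prom1-positive sample 2 (adjusted p = 0.0591) and with Prom1-negative cells as the reference (1.03, adjusted p = 0.124). In lung 19 were called, where 43.1% of all genes were (23.4% higher and 19.7% lower), with 13 higher, among them Pdk1 (2.07 ± 0.41), Bnip3 (1.89 ± 0.33) and Aldoc (1.67 ± 0.30). In liver 19 were called, where 47.2% were (29.2% higher and 18% lower), with 18 higher and Hk1 lower (-1.04 ± 0.22); after Egln3 came Ankrd37 (2.68 ± 0.40) and Aldoc (2.08 ± 0.29). In stomach 22 were called, where 58.1% were (35% higher and 23% lower), with 21 higher and Car9 lower; Ankrd37 (3.41 ± 0.47, with 6 of 7 normal stomach samples at or under the array median), Hk2 (2.85 ± 0.40) and Bnip3 (2.65 ± 0.37) were among the largest. In uterus 14 were called, where 28.8% were (16.4% higher and 12.4% lower), and all were higher, with Pkm (1.96 ± 0.32), Bnip3 (1.75 ± 0.38) and Aldoc (1.74 ± 0.35) after Egln3, Car9 and Pfkl. The size of the tumour difference varied between organs for 25 of the 27 genes, where 77.9% of all genes varied, the exceptions being Pdk1 and Pfkm. With the array's upper quartile as a covariate the stomach count was 14. Immediate early genes, which respond to handling, averaged 8.84 to 11.85 in the sorted groups and 6.89 to 7.86 in the tumour types, and cell division genes 3.39 to 8.50 and 5.29 to 8.88. The Gapdh 3′ to 5′ log2 ratio averaged 0.49 to 1.14 in the sorted groups and 0.35 to 0.54 in the tumour types. The 6 macrophage markers averaged 8.21 (6.70 to 9.35) in gastric tumours against 4.74 (4.51 to 4.99) in Prom1-positive and 3.75 (3.24 to 4.45) in Prom1-negative stomach cells. The part of these genes and cells in the differences was not tested.

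**Figure D4:**
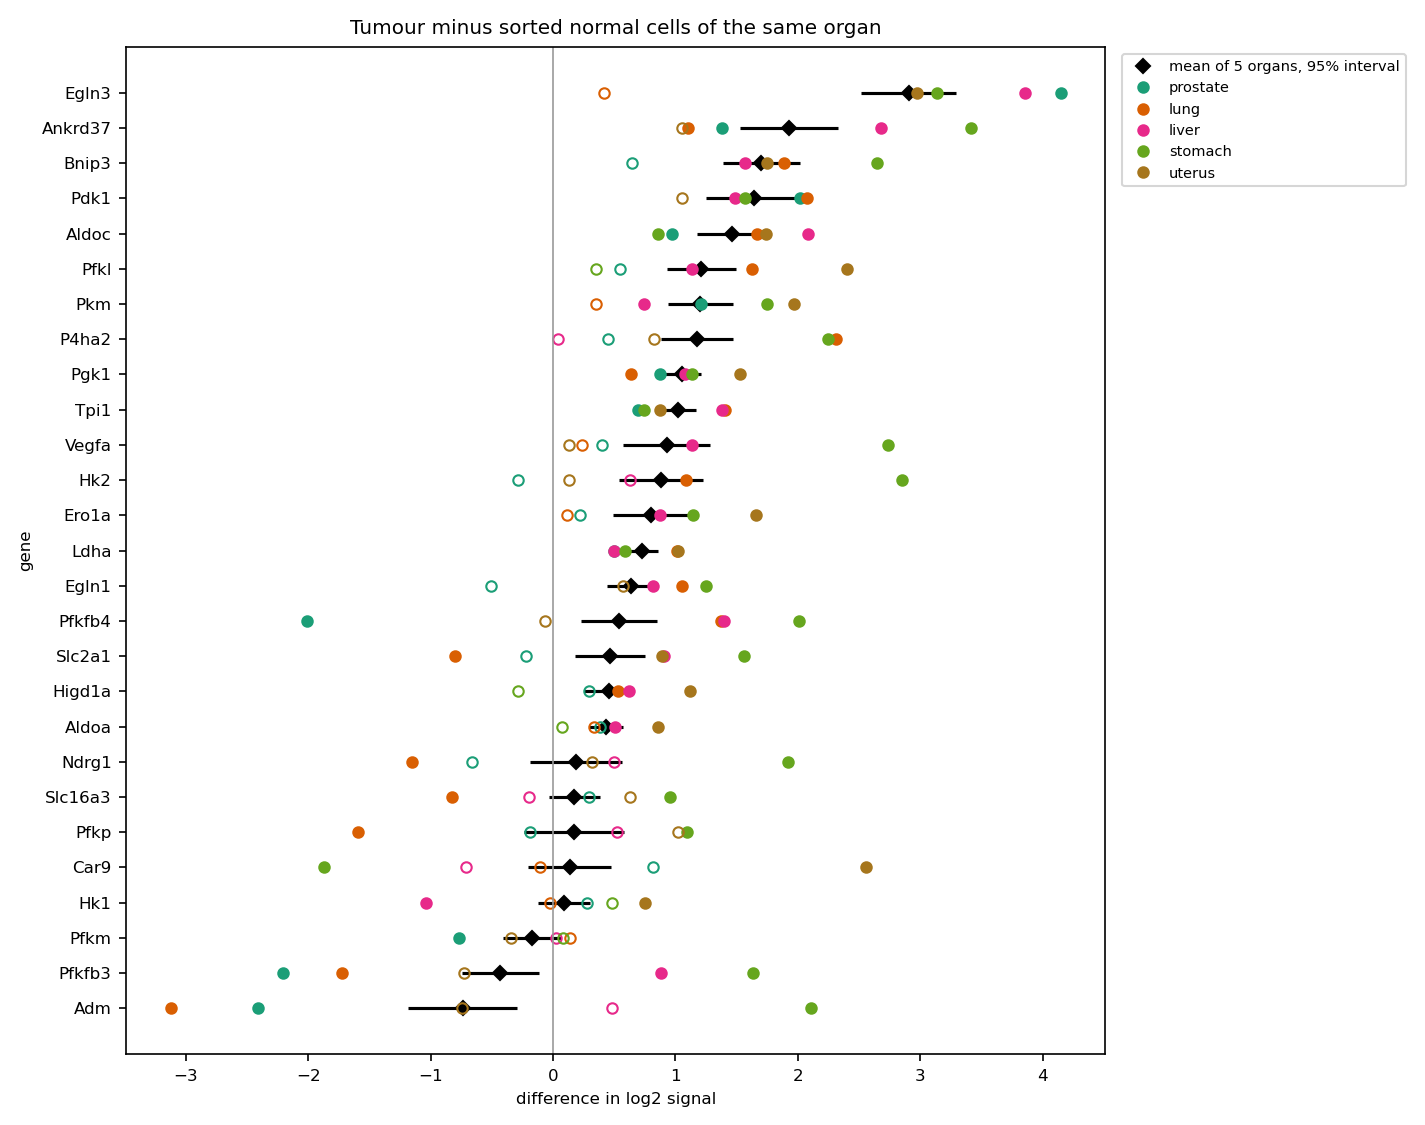
Tumour minus sorted normal cells of the same organ: difference in log2 signal (x axis) for each of the 27 genes (y axis), with the mean of 5 organs as a black diamond and its 95% interval, and each organ as a coloured circle, filled where called. Egln3 is at the top with a mean of 2.90 and a lung value of 0.41, and Adm is at the bottom with organ values from -3.12 to 2.10.

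Among tumours, which were all frozen whole, each type was set against the mean of the other 6. The 7 comparisons share all 66 tumours. Gastric and uterine tumours were the high types: 18 genes were called in gastric and 18 in uterine tumours, all higher, where 47.9% and 29.8% of all genes were called and 23.8% and 17.3% were higher. In gastric tumours Car9 led (2.75 ± 0.32, adjusted p = 2.12e-10), followed by Egln3 (1.63 ± 0.33), Ndrg1 (1.47 ± 0.31), Slc2a1 (1.40 ± 0.26), Vegfa (1.37 ± 0.22) and Adm (1.35 ± 0.41). In uterine tumours Adm (2.81 ± 0.45), Egln3 (2.63 ± 0.36) and Car9 (2.61 ± 0.35) led. Uterine Adm values ran from 6.18 to 9.66 with a median of 9.05, and those of gastric tumours from 5.35 to 9.82 with a median of 6.26, so that the types overlapped.

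In skin tumours 10 genes were called, all higher, where 41.7% of all genes were called (19.2% higher and 22.5% lower). Egln3 was 6.87-fold higher (2.78 ± 0.42, adjusted p = 1.99e-07), with values from 9.06 to 10.55, and Slc2a1 (1.37 ± 0.33), Pdk1 (1.16 ± 0.36), Pfkl (1.15 ± 0.31), Hk1 (1.11 ± 0.18) and Pkm (1.09 ± 0.27) followed. The highest type means of Egln3, 9.90 in skin and 9.77 in uterine tumours, differed by less than the spread within either type. The 6 skeletal muscle markers averaged 6.15 (3.47 to 8.89) in skin tumours and 3.11 to 4.59 in the other types, with single prostatic and uterine tumours at up to 9.07 and 7.94, and their part was not tested.

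Bronchial adenomas formed the opposite pole for Egln3. Their values ran from 2.75 to 6.16 with a median of 3.63, and 8 of 14 were at or under the array median, giving a difference of -4.13 ± 0.30 (adjusted p = 1.66e-18). They were also lower for Adm (-2.12 ± 0.38), Ndrg1 (-1.72 ± 0.28) and Slc2a1 (-1.43 ± 0.24). Higher signals were found for Pfkfb4 (2.42 ± 0.26), which ran from 6.97 to 9.02, and for P4ha2 (1.44 ± 0.20). In all 16 genes were called, where 58.1% of all genes were (23.9% higher and 34.1% lower), with 12 lower and 4 higher.

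Hepatocellular carcinomas were lower for all 3 genes of glucose entry and for 2 of the 5 phosphofructokinase genes. Hk1 values ran from 4.41 to 6.45, under every other tumour of the series, where 2.11% of all genes had no overlap. The Hk1 difference was -2.94 ± 0.13 (7.67-fold lower, adjusted p = 6.4e-29). Pkm (-2.62 ± 0.20), Hk2 (-2.59 ± 0.29), Pfkp (-2.09 ± 0.33), Car9 (-1.96 ± 0.30) and Slc2a1 (-1.48 ± 0.24) were lower as well. Hk2 spread widely within the type, from 4.06 to 9.84 with a median of 7.32, so that some carcinomas lay within the range of other types. In all 13 genes were called, where 66.3% of all genes were (25% higher and 41.3% lower), with 10 lower and 3 higher, Bnip3 (1.47 ± 0.22) among the latter.

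Lymphomas and prostatic tumours were mostly on the low side. In the 3 lymphomas, 10 genes were lower and 2 higher, where 46.6% of all genes were called (24.3% higher and 22.3% lower). Bnip3 read 8.01, 7.89 and 7.73 and Aldoc 5.14, 5.19 and 6.04, each under every other tumour (-2.53 ± 0.41 and -2.78 ± 0.39). Lymphomas did not overlap the other tumours for 7.57% of all genes. Egln3 (-3.64 ± 0.58), P4ha2 (-3.40 ± 0.38) and Vegfa (-2.76 ± 0.38) were lower too. Pfkfb3 (2.13 ± 0.45) and Pfkp (2.09 ± 0.61) were higher, with Pfkfb3 at 9.09, 8.81 and 9.06. In prostatic tumours 11 genes were called, where 41.8% of all genes were (22.1% higher and 19.6% lower), with 9 lower; the largest were Pfkl (-1.17 ± 0.25), Ero1a (-1.04 ± 0.27) and Adm (-1.04 ± 0.43). The Adm call was lost without lymphoma 1 (adjusted p = 0.0581) or lymphoma 3 (adjusted p = 0.0551), with no filter (adjusted p = 0.0536) and once the upper quartile was a covariate (-0.87, adjusted p = 0.177).

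Within tumour types the genes varied together. After each type's mean was removed, the 351 pairs of the 27 genes had a median Pearson r of 0.35 over 66 tumours, beside 0.0029 for all pairs of genes, and 20.2% of pairs were above 0.5, beside 0.537% of all pairs. Tumours share array scale and cell makeup, so these values are descriptions. The 4 pairs with the highest r, chosen from the 351, are given here. Tpi1 and Ldha had r = 0.71 and rho = 0.62, with r from 0.66 to 0.89 within the 6 types of at least 6 tumours, and r = 0.59 without the 2 samples farthest from the Tpi1 median. Slc2a1 and Ndrg1 had r = 0.71 and rho = 0.70, and 0.66 without 2 samples, but r ranged from -0.06 in prostatic to 0.93 in uterine tumours. Slc2a1 and Adm had r = 0.70 and rho = 0.69, from 0.31 to 0.85 within types and 0.70 without 2 samples. Vegfa and Ero1a had r = 0.69 and rho = 0.67, from 0.12 in bronchial to 0.92 in gastric tumours and 0.66 without 2 samples. Each had a two-sided permutation p of 1e-05 for both r and rho, the smallest that 100000 permutations within types can give, with adjusted values of 7.8e-05 for r and 0.000125 for rho over 351 pairs. Pfkm and Pfkfb4 had r near 0 with most other genes.

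**Figure D5:**
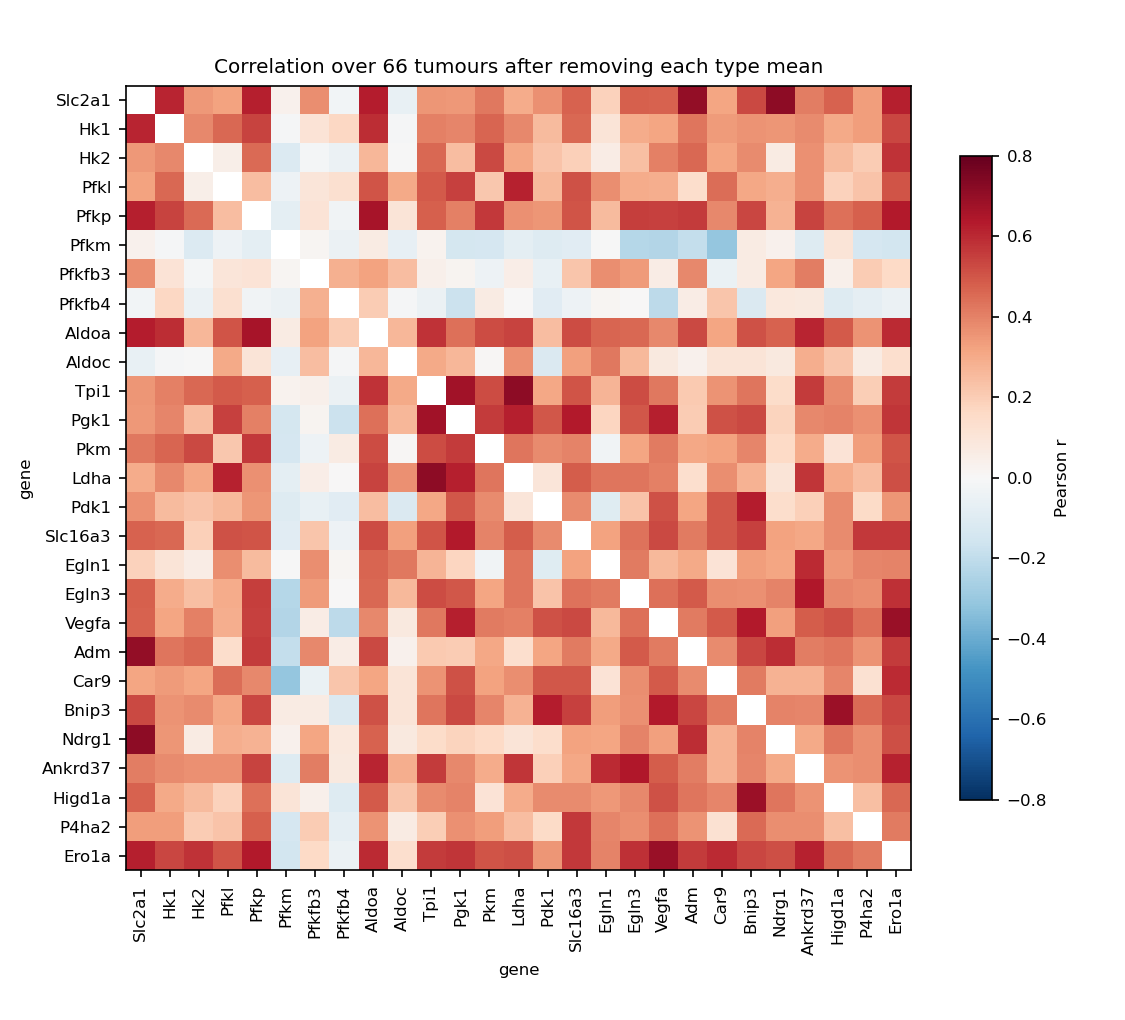
Matrix of Pearson r between the 27 genes (both axes) over 66 tumours after the mean of each tumour type was removed, from -0.8 to 0.8. Most cells are positive, with Pfkm and Pfkfb4 as pale rows.

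Other genes of the same pathways were followed from lists. Of 19 other glycolysis genes, 10 were called in the mean of tumour minus normal, 3 higher and 7 lower, where 65.8% of all genes were called (39% higher and 26.8% lower), with a median of -0.21. Gapdh, glyceraldehyde phosphate dehydrogenase, was higher (0.76 ± 0.06), while Hk3, the hexokinase of myeloid cells (-0.92 ± 0.12), and Ldhb, the heart-type lactate dehydrogenase subunit (-0.70 ± 0.20), were lower. Of 29 other hypoxia genes, 19 were called, 17 higher and 2 lower, in the same comparison, with a median of 0.39 beside 0.08 over all genes. The largest were Ddit4, an inhibitor of mTOR signalling (1.15 ± 0.15), Hif1a, the oxygen-regulated alpha subunit itself (1.02 ± 0.09), and Hif1an, the asparaginyl hydroxylase that restrains it (0.96 ± 0.10). In gastric tumours 21 of the 29 were higher and 1 lower than in normal stomach, where 35% and 23% of all genes were, the largest being Angptl4, an inhibitor of lipoprotein lipase (3.84 ± 0.40), while the monocarboxylate transporter gene Slc16a7 fell by 5.42 (-5.42 ± 0.44). In the mean sort difference 2 of the 19 and 4 of the 29 were called, shares near the 13.6% of all genes, among them Slc2a3, the high-affinity glucose transporter (-1.26 ± 0.21), and Plod2, a collagen lysyl hydroxylase (-1.04 ± 0.18), both lower in Prom1-positive cells. The Slc2a3 difference was largest in liver (-4.14 ± 0.45).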

How the data were processed

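The series measured RNA on Affymetrix mouse arrays in 117 samples. The authors deposited 1 table of log2 signals made with RMA, with Partek 6.6 also named, per the submitters' processing notes; background correction and normalization settings are not given in the sources used here. RMA draws arrays towards a shared distribution, so a shift of all genes between groups cannot be seen. Of 45141 probe sets, 28898 carry 1 gene symbol, 551 several and 15692 none in the platform annotation, and 28689 of the first were matched to RefSeq through the Entrez identifier. Levels of different probe sets were not set against each other.

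Groups were taken from the sample labels. Group means were fitted by lmFit and eBayes (limma 3.58.1, R 4.3.3), for genes above the array median in at least 3 arrays: 1 model for the 51 sorted samples, 1 for all 117 and 1 for the 66 tumours. P-values were adjusted with Benjamini-Hochberg over all genes of a model, and a gene was called at an adjusted p under 0.05. The scripts were tested on simulated data: of 200 genes changed by a log2 value of 1, 32% were recovered in the liver sort, 76% in liver tumour minus normal and 85% in hepatocellular carcinoma against other types. Correlations used residuals from tumour type means, with 100000 permutations within types. Arrays have no read depth, and the number of arrays limits the precision.

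The 31 genes and the other gene lists were chosen with earlier results of these data known. The rule for names allows every gene of the list: all called genes for a mean over tissues or organs, and mainly the 6 largest called differences for a single tissue, organ or type. From each other pathway list it takes the 3 largest called of a mean difference and the largest called of a single comparison. Same-numbered samples of the Prom1-positive and Prom1-negative groups correlated above 0.1 in 7 of 19 pairs. Neighbouring sample codes did so in 10 of 13 pairs, with r from -0.36 to 0.49. The labels state no pairing, so the main tests treated samples as unpaired, and both kinds of block were run as alternatives. Shared preparations behind neighbouring codes were not excluded, and the main p-values of the sort do not account for them. Alternatives were another choice of probe set, no filter or a stricter one, repeated quantile normalization, the upper quartile as a covariate, leaving out arrays, blocks, and Prom1-positive or Prom1-negative cells alone as the normal reference.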

Additional observations from a re-analysis of the deposited data

Results flagged for a closer look

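Single samples that stood apart from their group were looked for in 270 combinations of gene and group, for groups of 4 to 10 samples, by the gap to the nearest other sample over the group's range (Dixon's test at 95%). Of these, 32 passed, or 11.9%, where chance gives about 1 in 20, and they lay in 16 samples. Prom1-positive liver sample 2 was the highest of its 4 samples for Hk1 (7.86), Pfkp (6.97), Pfkfb3 (6.74) and Aldoa (10.81), and the lowest for Vegfa (5.32). Prom1-negative prostate sample 1 was the highest of its group for Hk2 (10.67), Slc16a3 (3.91) and Vegfa (8.94) and the lowest for Pfkp (8.14) and Pfkfb3 (6.24), and sample 5 was the lowest for Higd1a (8.36). Prom1-negative lung sample 7 was the lowest for Hk1 (7.35), Pfkm (4.34), Ndrg1 (7.22) and P4ha2 (4.55). Prostatic tumour 3 was the highest for Hk2 (10.42), Pfkp (9.28), Car9 (8.79) and Ero1a (9.34), and prostatic tumour 10 was the lowest for P4ha2 (6.78).

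The remaining samples had 1 or 2 such values. In skin tumours these were the lowest Slc2a1 (8.63, sample 3), the highest Pfkl (9.24) and Car9 (6.55, both sample 1) and the lowest Pfkfb3 (5.82, sample 2). The Prom1-negative stomach sample with the lowest array upper quartile was the lowest for Pgk1 (9.31) and Bnip3 (3.96), and Prom1-negative stomach sample 1 was the highest for Pkm (10.85). In Prom1-negative intestine the highest values were Pkm at 10.14 (sample 5) and Ldha at 12.04 (sample 1), and in Prom1-negative liver Adm at 7.44 (sample 2). Uterine tumour 9 was the lowest for Hk2 (8.50), and Prom1-positive uterus sample 1 was the lowest for Pfkm (5.47).

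Differences between tissues under the same contrast were tested with limma interaction terms. The Prom1 sort differed between the 6 tissues for 6 of the 27 genes, a share near the 21.2% of all genes. Tumour minus normal differed between the 5 organs for 25 of the 27, where 77.9% of all genes did.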

How the results depend on the processing

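The alternatives were checked for all called genes of the mean comparisons and for the 6 largest called differences of each other comparison. None of these changed sign, with other probe sets entering as the mean of a gene's sets. Smaller called differences were not checked. Taken singly, 8 of 21 other probe sets, of 7 genes, had the opposite sign in at least 1 called comparison, or in 28 of 238 in all. Among them was Vegfa in the mean of tumour minus normal. Of the values checked, 1203 kept their call and 26 lost it under settings other than leaving out a replicate. When 1 replicate was left out, 2394 kept and 12 lost it. The number of the 27 genes called in the mean sort difference (3) was 6 with the mean of all probe sets of a gene, 5 with quantile normalization repeated, 8 without the arrays of upper quartile under 6 and 1 with the replicate block by title number, and 2 to 7 when 1 replicate was left out. In prostate (2) it was 4 without those arrays, 0 with the replicate block (4 at an unadjusted p under 0.05), 7 with neighbouring sample codes as a block and 6 with that tissue fitted alone, and 1 to 2 with 1 replicate left out; it was 1 without Prom1-negative sample 1, Prom1-positive sample 2 or Prom1-positive sample 3. In stomach (1) it was 3 with repeated quantile normalization, 2 with the upper quartile as a covariate, 2 with neighbouring codes as a block and 0 with that tissue alone (1 at an unadjusted p under 0.05), and 1 to 3 with 1 replicate left out, 3 being without the dim Prom1-negative sample. In uterus (1) it was 3 with repeated quantile normalization, 2 with that covariate, 2 without the arrays of low upper quartile, 4 with neighbouring codes as a block and 4 with that tissue alone. The sort-by-tissue interaction (6) called 12 genes without the arrays of low upper quartile and 3 with the replicate block, and 5 to 11 with 1 replicate left out, 11 being without Prom1-positive liver sample 2. In stomach, tumour minus normal (22) called 14 once the upper quartile was a covariate. Shares of all genes called under these settings are not given here, so the counts may have moved with those of all genes. The cause of these changes was not tested. Under the replicate block the Prom1 sort calls of Ndrg1 (adjusted p = 0.167) and Pfkfb3 (0.0669) in prostate, Aldoc in stomach (0.0745), and Hk1 (0.167) and Pkm (0.0671) in the mean were lost; same-numbered samples share only a number. The stomach Aldoc difference was 1.19 (adjusted p = 0.208) with neighbouring codes as a block. The block of neighbouring codes gave no value for intestine. Dim signal limits Slc16a3, Car9, Egln3, Adm, Ankrd37, Pfkfb4 and P4ha2, whose low values lie near the array median and have no detection calls.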

Other observations

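Pathways next to glycolysis were followed from 3 further lists, in the same limma models. Genes of pyruvate dehydrogenase and the citrate cycle were high in normal gut: 17 of 17 were higher in intestine than in the other tissues, where 57.3% of all genes were called, led by Idh3a, the catalytic subunit of isocitrate dehydrogenase (2.19 ± 0.19), and 13 of 17 were higher in stomach, where 50.6% of all genes were called and 19.2% were higher. In lung 16 of 17 were lower, where 53.3% of all genes were called and 28.5% were lower, led by Fh1, fumarate hydratase (-1.49 ± 0.15). In gastric tumours 16 of 17 were lower than in normal stomach cells, with Fh1 at -1.72 ± 0.16 (adjusted p = 3.05e-16), where 58.1% of all genes were called. In the mean over 5 organs 9 of 17 were called, 7 higher and 2 lower, where 65.8% of all genes were called (39% higher and 26.8% lower), with Idh3a at 0.83 ± 0.10, Mdh2, mitochondrial malate dehydrogenase, at 0.45 ± 0.05 and Dlst, a subunit of the oxoglutarate dehydrogenase complex, at 0.39 ± 0.06.

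Of 6 gluconeogenesis genes tested, 4 were called in tumour minus normal in the mean over 5 organs, a share near the 65.8% of all genes. All 4 were higher in tumours, where 39% of all genes were higher: Fbp1, the liver-type fructose bisphosphatase (1.45 ± 0.27), Pck2, mitochondrial phosphoenolpyruvate carboxykinase (0.77 ± 0.13), Fbp2, the muscle-type fructose bisphosphatase (0.77 ± 0.32), and Pcx, pyruvate carboxylase (0.70 ± 0.17). The means of Fbp2 and Pcx join opposite directions. Both were lower in stomach (-3.03 ± 0.75 and -1.80 ± 0.40) and higher in lung (3.82 ± 0.67 and 3.53 ± 0.36). Fbp1 was higher in prostate (3.66) and lung (2.93) and was not called in liver (0.07), stomach (0.004) or uterus (0.60). Among normal tissues Fbp1 was highest in liver (6.39 ± 0.20 above the mean of the other 5) and Fbp2 in intestine (6.38 ± 0.28). Among tumours Fbp1 was higher in hepatocellular carcinoma (6.74 ± 0.50) and prostatic adenocarcinoma (5.20 ± 0.55) than in the other types. Of 5 pentose phosphate genes, 3 were called in the mean of tumour minus normal, a share below the 65.8% of all genes. All 3 were higher in tumours, where 39% of all genes were higher: Tkt, transketolase (0.43 ± 0.08), Pgls (0.39 ± 0.07) and Pgd (0.32 ± 0.09). Pgd was lower in gastric tumours than in normal stomach cells (-0.53 ± 0.22). All 5 pentose phosphate genes were higher in normal intestine, where 29.6% of all genes were higher, led by Rpia, ribose phosphate isomerase (1.63 ± 0.27). In the mean sort difference limma called 0 genes of these 3 lists, while 2 of the 17 citrate cycle genes, 1 of the 6 gluconeogenesis genes and 1 of the 5 pentose phosphate genes had an unadjusted p under 0.05.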
